A study of Homo sapiens with 12 samples.

Results

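The 9 genes described here encode C-type lectin receptors: CLEC10A, CD209, CLEC7A, CLEC4A, CLEC4E, CLEC5A, CLEC12A, CLEC2B and MRC1. Some of them, but not all, are used as markers of M2 macrophages and dendritic cells. The 9 genes were taken by gene name from the 58907 genes of the deposited count table, where each name has 1 row. The 5 genes CLEC7A, CD209, CLEC10A, CLEC5A and CLEC2B had enough counts to be tested, among 15252 genes tested in all. The other 4 were at or near 0 counts in all 12 libraries and are given as counts.

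The libraries are poly-A RNA of PPRE-eGEP-THP-1, a line engineered from THP-1 human monocytic leukaemia cells. The labels do not expand PPRE or eGEP. All cultures first received phorbol 12-myristate 13-acetate (PMA, 25 ng/mL, 48 h), which turns THP-1 monocytes into adherent macrophage-like cells, and then rested in fresh medium for 24 h. The question was how monocyclohexyl phthalate (MCHP), to which the plasticizer dicyclohexyl phthalate is hydrolysed, acts on macrophage polarization. The 4 groups had 3 biological replicates each. The M1 MCHP group had lipopolysaccharide (LPS, 100 ng/mL) and interferon gamma (20 ng/mL) with 100 µM MCHP for 24 h, and the M1 DMSO group had the same stimuli with the solvent. The M2 MCHP group had interleukin 4 and interleukin 13 (20 ng/mL each) with 100 µM MCHP for 24 h, and the M2 DMSO group had the same cytokines with the solvent. All libraries come from this 1 cell line, and unpolarized cells were not analysed here.

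C-type lectin receptors are membrane proteins that bind sugars or other ligands of microbes and dying cells through a calcium-type lectin fold. CLEC7A (dectin-1) binds fungal beta-glucan and signals through the kinase SYK and the adaptor CARD9, and CLEC4E (mincle) and CLEC5A reach SYK through the adaptors FCER1G and TYROBP. CD209 (DC-SIGN), CLEC10A (the macrophage galactose lectin) and MRC1 (the mannose receptor, CD206) take up glycosylated ligands, and CLEC4A and CLEC12A carry inhibitory motifs.

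In these cells the markers did not move as 1 block. CD209 and CLEC7A made up most of the receptor RNA and were higher in M2 than in M1 cells, whereas CLEC10A, CLEC5A and CLEC2B were higher in M1 cells. For CLEC2B this direction was fixed in advance, since only its M1 libraries gave it enough counts to be tested. MRC1 had 2 counts in the 6 M2 libraries together and none in the 6 M1 libraries. With MCHP, CD209, CLEC7A and CLEC10A were lower in M2 cells, and no receptor gene passed the test in M1 cells. For CLEC10A this rested on 34 counts with MCHP and 72 with DMSO, and it passed in 14 of 19 alternative fits. In bulk RNA, fewer cells with a transcript and less of it per cell cannot be told apart.

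Library depth was 14352202 to 16871233 counts. The M2 DMSO replicate 1 library stood apart: the SD of its log2 deviation from the others of its group was 0.445, against 0.315 to 0.352 for the other 11 libraries. Results of the tested receptor genes on M2 DMSO cells are therefore also given without it where they rest on it. Values of most other genes are given with all libraries only. As a check of the labels, 13 of 15 tested M1 marker genes were higher in M1 than in M2 cells, with either MCHP or DMSO. The other 2 were lower in both comparisons. Among the 13, CXCL9, IDO1, GBP5, GBP1, CXCL11 and CD80 had at most 11 counts in either M2 group. They had enough counts to be tested only through M1 libraries, so their direction was fixed in advance. Of all tested genes, 21.9% passed as higher with MCHP and 21.6% with DMSO. Of 13 tested interleukin 4 markers, 8 were lower in M1 than in M2 cells with MCHP and 7 with DMSO, the chemokine CCL22 among them. Another 2 were higher in M1 with MCHP and 3 with DMSO, CD163 in both (0.71 and 0.81 on the log2 scale). Of the lower ones, ALOX15 and FABP4 had enough counts to be tested only through M2 libraries, so their direction was fixed too. In M1 MCHP and M1 DMSO they had 12 and 15 counts (ALOX15) and 30 and 6 counts (FABP4). Of all tested genes, 22.7% passed as lower with MCHP and 20.9% with DMSO. The defining macrophage marker CD68 had only 17, 3, 11 and 5 counts in the M1 MCHP, M1 DMSO, M2 MCHP and M2 DMSO groups, and it shares its locus with an antisense gene. A second macrophage marker, the scavenger receptor gene MSR1, had 6, 7, 15 and 2 counts in the same groups. The other 9 macrophage markers had enough counts to be tested, and the summed level of all 11 was 6179 to 6284 CPM (the count relative to the TMM-adjusted library size) with M1 MCHP, 6131 to 6213 with M1 DMSO, 4127 to 4251 with M2 MCHP and 4061 to 4556 with M2 DMSO. Within these sums CTSB alone averaged 3822, 3656, 2323 and 2387 CPM in the same order of groups. The dendritic cell markers FCER1A and CLEC4C had 0 counts in every group. The T-cell gene CD2 and the epithelial gene EPCAM were also at 0 throughout. Other genes of the marker lists had counts. The dendritic marker ITGAX averaged 1742, 1717, 1952 and 1976 CPM in M1 MCHP, M1 DMSO, M2 MCHP and M2 DMSO. In that order TRAC (T cell) averaged 11.5, 15.9, 20.3 and 32.6 CPM, and KRT8 (epithelial) 1.87, 2.22, 1.22 and 1.34. PECAM1 (endothelial) averaged 804.5, 893.3, 1116 and 1089 CPM, and COL1A1 (fibroblast) 130.1, 116.1, 27.62 and 27.56. Whether other cell types were present was not tested.

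Of the 9 members, 5 lie on chromosome 12 in hg38, in the region of the genome where lectin-like receptor genes are clustered. CLEC4A (ENSG00000111729) lies at chr12:8123632-8138607 on the plus strand, CLEC4E (ENSG00000166523) at chr12:8533305-8540963 on the minus strand and CLEC2B (ENSG00000110852) at chr12:9852984-9870136 on the minus strand. CLEC12A (ENSG00000172322) lies at chr12:9951316-9995694 on the plus strand, 81.2 kb from CLEC2B, and CLEC7A (ENSG00000172243) at chr12:10116777-10130258 on the minus strand, 121 kb from CLEC12A. The remaining members are each on another chromosome. CLEC10A (ENSG00000132514) lies at chr17:7074537-7080307 and CD209 (ENSG00000090659) at chr19:7739994-7747564, both on the minus strand. CLEC5A (ENSG00000258227) lies at chr7:141927357-141947007 on the minus strand, and MRC1 (ENSG00000260314) at chr10:17809344-17911170 on the plus strand.

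Promoter sequence was in the RefSeq table (GRCh38.p14) for CD209, CLEC4E, CLEC5A and CLEC12A. The sequences of CD209 and CLEC5A are shown because these genes differed between M1 and M2 cells in opposite directions. Each runs 5′ to 3′ on the minus strand and ends directly before the gene model, CD209 at chr19:7747565-7747784 and CLEC5A at chr7:141947008-141947224, with motif matches in capitals.
CD209: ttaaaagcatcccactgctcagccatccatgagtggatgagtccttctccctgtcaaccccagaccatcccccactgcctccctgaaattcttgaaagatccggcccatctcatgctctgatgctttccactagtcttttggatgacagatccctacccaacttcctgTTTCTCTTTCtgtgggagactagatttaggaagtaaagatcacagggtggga
CLEC5A: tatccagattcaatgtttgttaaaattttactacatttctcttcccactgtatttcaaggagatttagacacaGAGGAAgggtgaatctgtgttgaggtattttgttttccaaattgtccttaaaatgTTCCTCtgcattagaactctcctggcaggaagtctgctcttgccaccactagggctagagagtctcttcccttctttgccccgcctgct
The capitals in CD209 are a match, on the reverse strand, to the interferon-stimulated response element (GAAA, any 2 bases, GAAA) at positions -82 to -73, counted from the RefSeq start. This motif was found in 3.57% of 35116 promoter windows of 300 bases. The capitals in CLEC5A are matches to the core GAGGAA of the myeloid factor PU.1, at positions -177 to -172 and, on the reverse strand, at positions -122 to -117. CLEC4E and CLEC12A had 1 PU.1 match each, and 27.9% of all promoter windows hold one. On both strands, none of these 4 promoters had a match to the STAT6 motif (TTC, any 4 bases, GAA, in 6.44% of windows) or the nuclear receptor hexamer AGGTCA (in 13.8%). These are letter matches, and binding was not measured.

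Levels were compared between genes per kilobase of gene model. CLEC7A was first and CD209 next in every group. CLEC7A averaged 28.2 CPM per kb with M1 MCHP, 28.9 with M1 DMSO, 45.4 with M2 MCHP and 63.7 with M2 DMSO. CD209 averaged 13.7 CPM per kb with M1 MCHP, 12.1 with M1 DMSO, 24.3 with M2 MCHP and 36.5 with M2 DMSO. These genes together gave 75.23 to 81.19% of the summed CPM of all 9 members in the M1 libraries and 97.81 to 98.60% in the M2 libraries. In M1 cells CLEC10A came after them (7.33 CPM per kb with MCHP and 9.04 with DMSO), followed by CLEC5A (6.26 with MCHP and 6.96 with DMSO), with no overlap between the libraries of these neighbours. In M2 cells CLEC5A was above CLEC10A, at 1.03 CPM per kb with MCHP and 1.26 with DMSO for CLEC5A, against 0.287 with MCHP and 0.578 with DMSO for CLEC10A. CLEC4A came next in M2 cells (0.209 with MCHP and 0.206 with DMSO), and its libraries overlapped those of CLEC10A with MCHP but not with DMSO. CLEC2B was at most 0.534 CPM per kb in any group.

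The uptake receptor CD209 had 65.7, 57.4 and 58.8 CPM in the M1 MCHP libraries, 56.8, 53.5 and 50.3 in M1 DMSO, 109.7, 111.4 and 100.0 in M2 MCHP, and 151.3, 173.3 and 159.2 in M2 DMSO. Every M2 library was above every M1 library, and the M2 MCHP libraries all lay below the M2 DMSO libraries. In M1 cells the MCHP libraries were all above the DMSO libraries, by a small margin.

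The fungal beta-glucan receptor CLEC7A had 124.0, 115.3 and 114.9 CPM in M1 MCHP, 130.1, 117.4 and 116.1 in M1 DMSO, 186.9, 186.4 and 197.1 in M2 MCHP, and 309.3, 243.5 and 247.5 in M2 DMSO. The M1 groups overlapped and lay below all M2 libraries, and the M2 MCHP libraries were all below the M2 DMSO libraries. The highest value, 309.3 CPM, was in M2 DMSO replicate 1, the library that stood apart.

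The galactose lectin CLEC10A had 17.3, 18.1 and 18.9 CPM in M1 MCHP, and 22.6, 22.6 and 21.8 in M1 DMSO. In M2 cells it was near the limit of counting, with 12, 15 and 7 counts in the MCHP libraries and 23, 22 and 27 counts in the DMSO libraries. No groups of this gene overlapped, and the M1 libraries were all far above the M2 libraries.

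CLEC5A, which pairs with TYROBP, had 25.2, 24.6 and 27.8 CPM in M1 MCHP, 26.7, 29.1 and 30.4 in M1 DMSO, 2.90, 5.22 and 4.66 in M2 MCHP, and 6.49, 4.35 and 4.73 in M2 DMSO. The MCHP and DMSO libraries overlapped in both polarizations, and M1 and M2 libraries did not. CLEC2B, a ligand of the NK-cell receptor NKp80, had 22, 13 and 25 counts in M1 MCHP, 8, 24 and 32 in M1 DMSO, 1, 2 and 1 in M2 MCHP, and 8, 0 and 6 in M2 DMSO. Its M1 and M2 libraries did not overlap with MCHP, while with DMSO the lowest M1 and the highest M2 library both had 8 counts. It had enough counts to be tested only through its M1 libraries.

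**Figure D1:**
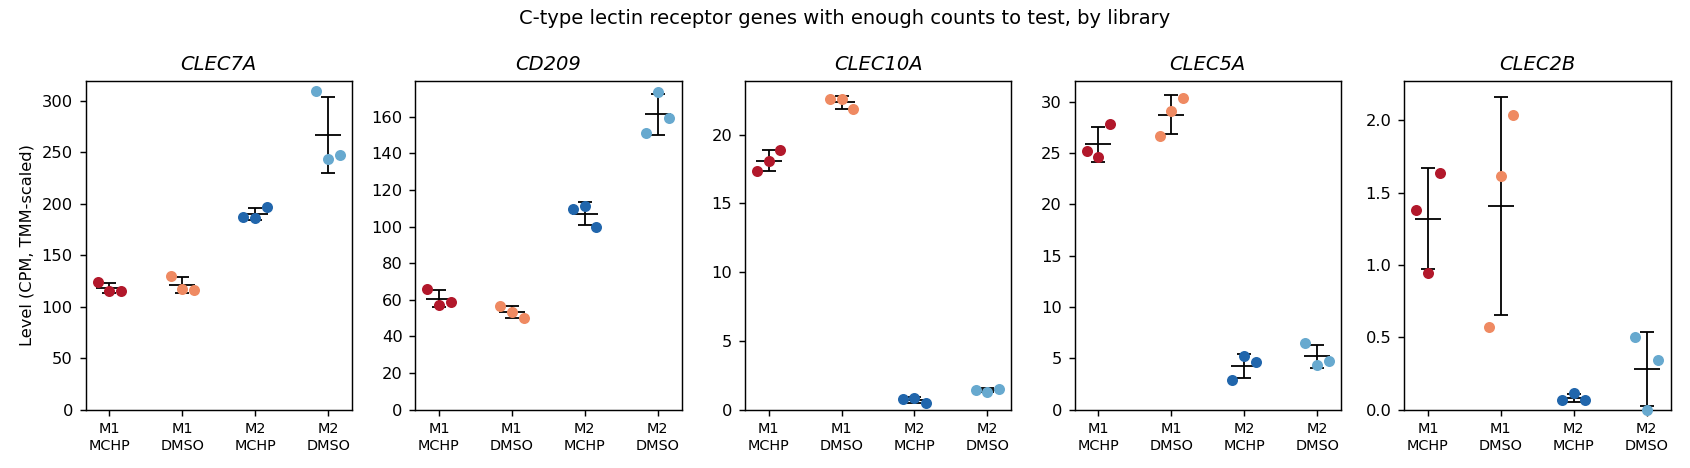
Level of the 5 tested receptor genes in each library (TMM-scaled CPM, vertical axes starting at 0), with 1 point per library and the mean ± SD of 3 libraries per group. CLEC7A and CD209 are highest with M2 DMSO, at 267 ± 36.9 and 161 ± 11.2 CPM, while CLEC10A, CLEC5A and CLEC2B are high in the M1 groups and low in the M2 groups.

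The 4 genes left untested were read as counts per library. CLEC4A, an inhibitory receptor of dendritic cells, had 0, 2 and 2 counts in M1 MCHP, 0, 0 and 3 in M1 DMSO, 6, 6 and 1 in M2 MCHP, and 7, 5 and 1 in M2 DMSO. Summed over a group, M1 against M2 gave 4 against 13 counts with MCHP, a ratio of 0.324 (exact 95% interval 0.0769 to 1.05), and 3 against 13 counts with DMSO, a ratio of 0.261 (0.0477 to 0.95). The libraries overlapped in both cases, and the intervals cover counting error only. Other genes overlap CLEC4A: the pseudogene POU5F1P3 on the opposite strand with 59 counts over all libraries, and AC006511.5 on the same strand with 36.

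CLEC4E, a receptor of mycobacterial glycolipids, had 1, 2 and 2 counts in M1 MCHP, 2, 1 and 4 in M1 DMSO, none in M2 MCHP, and 0, 1 and 0 in M2 DMSO. With MCHP, 5 counts in M1 stood against 0 in M2 cells, and a fit with no filter on low counts did not call it (adjusted p = 0.17). With DMSO, 7 counts in M1 against 1 in M2 cells gave a ratio of 7.92, with an exact 95% interval of 1.02 to 357, and that fit did not call it either (adjusted p = 0.34). CLEC12A, an inhibitory receptor of myeloid cells, had at most 3 counts in any library and 7 in all, and MRC1 had 1 count in each of 2 M2 MCHP libraries. No fold is given for CLEC12A or MRC1. A floor of 3 counts over a group corresponds to 0.0667, 0.0674, 0.0634 and 0.0595 CPM in M1 MCHP, M1 DMSO, M2 MCHP and M2 DMSO, so MRC1 was not detectable beyond that level in the M1 groups and in M2 DMSO.

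**Figure D2:**
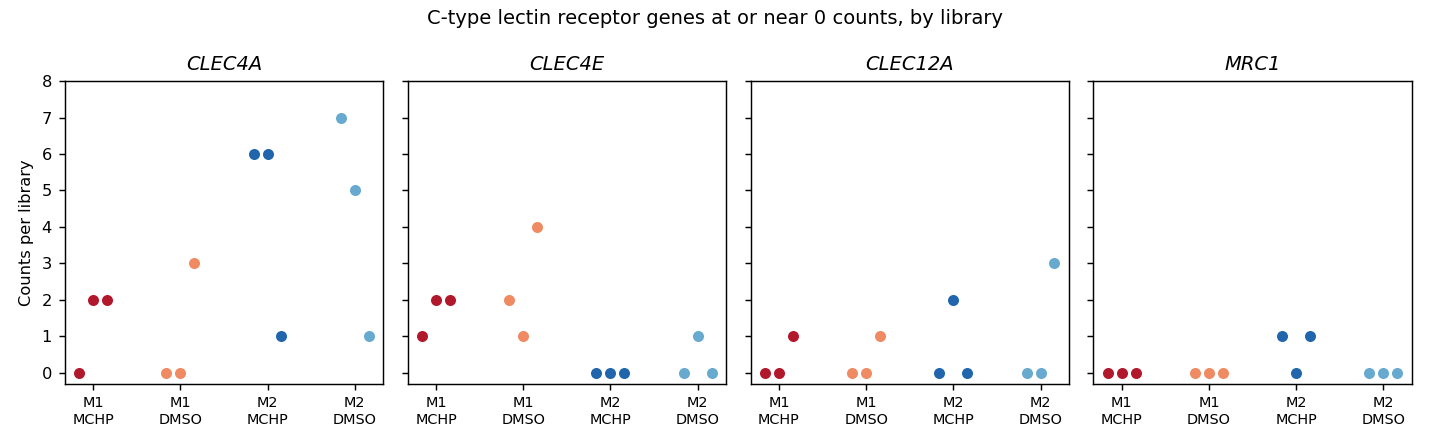
Counts per library of the 4 receptor genes that were not tested, with 1 point per library in each of the 4 groups. No library had more than 7 counts, and MRC1 was at 0 in 10 of the 12 libraries.

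The M1 and M2 groups were compared first. With MCHP, 5 of 5 tested members passed edgeR's quasi-likelihood test (Benjamini-Hochberg adjusted p under 0.05), 3 higher and 2 lower in M1, where 44.6% of all tested genes passed. With DMSO, again 5 of 5 passed in the same directions, against 42.5% of all tested genes. CLEC2B had to differ, since only M1 libraries carried it past the filter on low counts. The median log2 fold change of the 15252 tested genes was -0.00 in both comparisons.

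CLEC10A was 25.0-fold higher in M1 than in M2 cells with MCHP (log2 fold change 4.64 ± 0.17 SE, adjusted p = 4.6e-14). With DMSO it was 15.6-fold higher (3.96 ± 0.14, adjusted p = 6e-14). CLEC10A is commonly used as an M2 marker, and here the M1 libraries held more of it. CLEC5A was 6.04-fold higher in M1 cells with MCHP (2.59 ± 0.16, adjusted p = 1.9e-10) and 5.55-fold higher with DMSO (2.47 ± 0.16, adjusted p = 2.2e-10). On the opposite strand CLEC5A overlaps MGAM, which had 579 counts over all libraries and was also higher in M1 cells, by 1.98 with MCHP and 1.95 with DMSO on the log2 scale. The strand setting of the counting is not given in the sources used here, so reads of CLEC5A and MGAM in the shared stretch cannot be told apart. CLEC2B was 14.4-fold higher in M1 cells with MCHP (3.85 ± 0.76, adjusted p = 0.00038) and 4.99-fold higher with DMSO (2.32 ± 0.59, adjusted p = 0.0038). Only M1 libraries carried CLEC2B past the filter on low counts, so its direction was fixed in advance and these values are a description. Without M2 DMSO replicate 1 the DMSO value of CLEC2B was 2.98.

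CD209 was 1.76-fold lower in M1 than in M2 cells with MCHP (-0.82 ± 0.08, adjusted p = 4.2e-08). With DMSO it was 3.01-fold lower (-1.59 ± 0.08, adjusted p = 3.5e-12), and -1.64 on the log2 scale without M2 DMSO replicate 1. The reads of CD209 could be shared with its near copy CLEC4M, which had 4, 2, 4 and 9 counts in M1 MCHP, M1 DMSO, M2 MCHP and M2 DMSO. CLEC7A was 1.61-fold lower in M1 cells with MCHP (-0.69 ± 0.08, adjusted p = 1.3e-06) and 2.20-fold lower with DMSO (-1.14 ± 0.08, adjusted p = 1.3e-09). Without M2 DMSO replicate 1 the DMSO value of CLEC7A was -1.02.

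**Figure D3:**
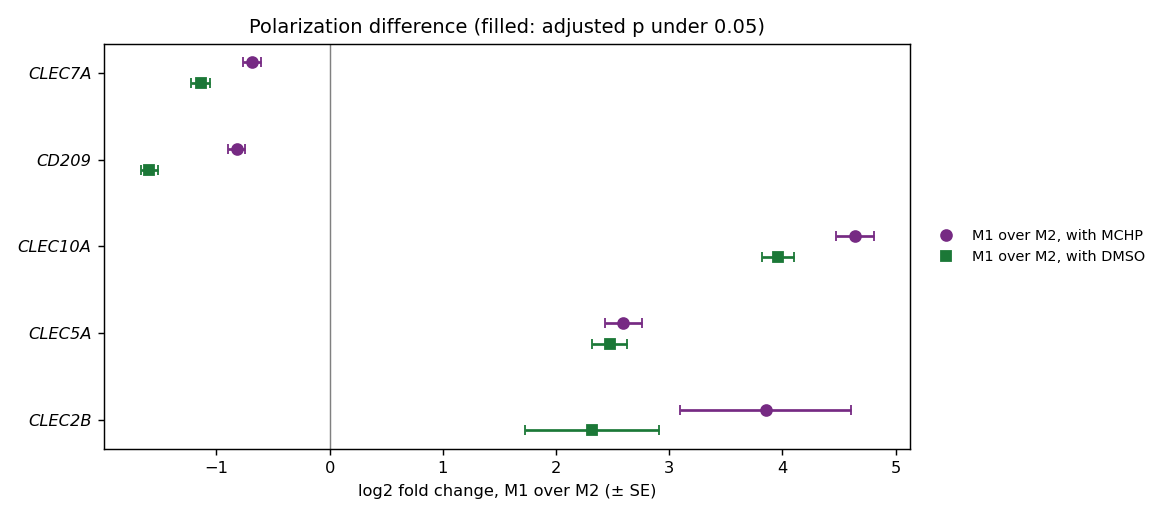
Log2 fold change of M1 over M2 for the 5 tested receptor genes, with MCHP (circles) and with DMSO (squares), ± SE, where filled symbols mark an adjusted p under 0.05. CLEC7A and CD209 lie left of 0 and CLEC10A, CLEC5A and CLEC2B right of it, and CLEC10A is farthest out at 4.64 with MCHP and 3.96 with DMSO. The direction of CLEC2B was fixed by the filter on low counts.

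MCHP was then compared with DMSO in M2 cells. Here 3 of 5 tested members fell and none rose, where 5.11% of all tested genes passed, 2.18% as lower and 2.92% as higher. CD209 averaged 107 ± 6.1 CPM with MCHP and 161 ± 11.2 CPM with DMSO (SD, n = 3 each), 1.51-fold lower. Its log2 fold change was -0.59 ± 0.07 (95% interval -0.74 to -0.44, adjusted p = 9.2e-05). CLEC7A averaged 190 ± 6.0 CPM with MCHP and 267 ± 36.9 CPM with DMSO, 1.40-fold lower. Its log2 fold change was -0.49 ± 0.08 (-0.66 to -0.32, adjusted p = 0.0012), and -0.37 (adjusted p = 1.1e-05) without M2 DMSO replicate 1. Without that library CD209 was at -0.63 (adjusted p = 2.4e-08).

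CLEC10A averaged 0.708 ± 0.204 CPM with MCHP and 1.43 ± 0.12 CPM with DMSO in M2 cells, 1.98-fold lower. Its log2 fold change was -0.99 ± 0.24 (-1.49 to -0.48, adjusted p = 0.021). This call rested on 34 counts with MCHP and 72 counts with DMSO, and the value was -0.97 (adjusted p = 0.027) without M2 DMSO replicate 1. It was lost on leaving out M2 MCHP replicate 1 (-1.04, adjusted p = 0.060), M2 MCHP replicate 3 (-0.79, adjusted p = 0.17) or M2 DMSO replicate 3 (-0.92, adjusted p = 0.070), and the adjusted p ranged over 0.017 to 0.20 in all 19 alternatives. CLEC5A at -0.27 (-0.67 to 0.13, adjusted p = 0.48) and CLEC2B at -1.63 (-3.69 to 0.42, adjusted p = 0.40) did not pass, and their intervals reach from a decrease to an increase. CLEC2B was at -0.97 without M2 DMSO replicate 1, at -2.21 without M2 DMSO replicate 2 and at -0.66 with limma-voom. The sum of all 9 members was 300.7 to 304.5 CPM in M2 MCHP libraries and 413.6 to 469.5 CPM in M2 DMSO libraries, with no overlap.

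In M1 cells none of the 5 tested members passed for MCHP against DMSO, where 0.0852% of all tested genes (13) passed by edgeR's quasi-likelihood test, 0.0721% as higher and 0.0131% as lower, and 817 had an unadjusted p under 0.05. CLEC10A averaged 18.1 ± 0.8 CPM with MCHP and 22.3 ± 0.4 CPM with DMSO, a log2 fold change of -0.30 (-0.52 to -0.08), with an unadjusted p of 0.0102 and an adjusted p of 0.65. CD209 averaged 60.6 ± 4.5 CPM with MCHP and 53.5 ± 3.2 CPM with DMSO, a log2 fold change of 0.18 (0.02 to 0.34, adjusted p = 0.88). CLEC7A was at -0.04 (-0.21 to 0.14), CLEC5A at -0.15 (-0.43 to 0.13) and CLEC2B at -0.10 (-1.09 to 0.89), each with an adjusted p of 1.0. Their intervals leave decreases and increases of these sizes possible. DESeq2 and limma-voom also called none of the 5.

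The difference between both responses was tested itself, as the MCHP effect in M1 minus that in M2. Of the 5 tested members 1 passed, CD209, where 0.164% of all tested genes (25) passed, 0.059% with a difference above 0 and 0.105% with one below. The difference for CD209 was 0.77 ± 0.11 on the log2 scale (0.55 to 0.99, adjusted p = 0.003). For CLEC7A it was 0.45 ± 0.11 (0.21 to 0.69, adjusted p = 0.16), and 0.33 (adjusted p = 0.009) without M2 DMSO replicate 1. DESeq2 also called CLEC7A, at 0.45 with an adjusted p of 0.047. For CLEC10A the difference was 0.68 ± 0.26 (0.13 to 1.23, adjusted p = 0.46), so a smaller response in M1 than in M2 cells was not shown for this gene. CLEC5A at 0.12 (-0.37 to 0.61) and CLEC2B at 1.53 did not pass, and CLEC2B ranged over 0.87 to 2.11 with single libraries left out, the lowest without M2 DMSO replicate 1 and the highest without M2 DMSO replicate 2.

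**Figure D4:**
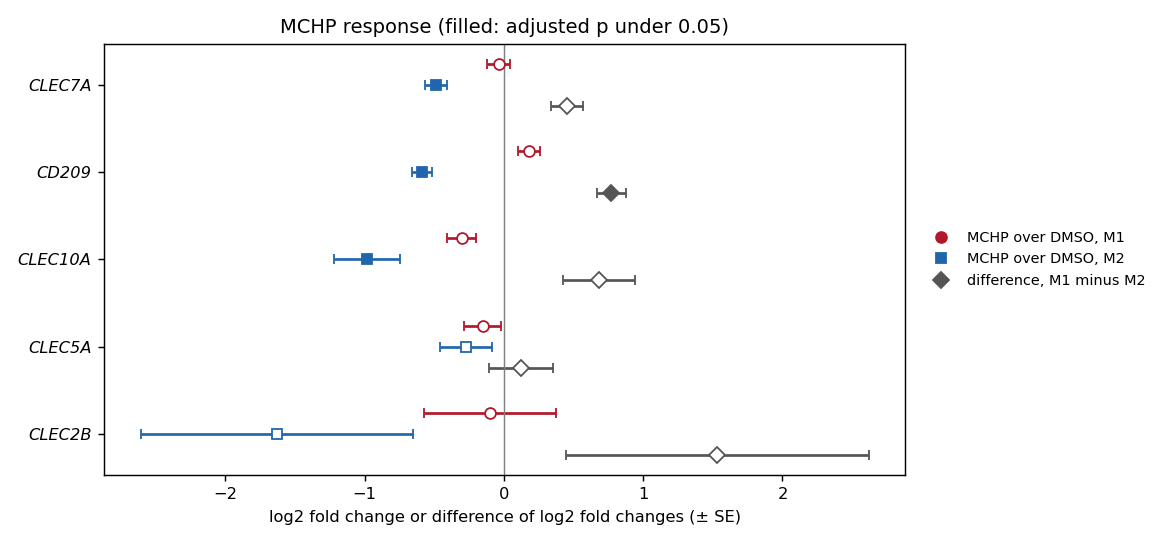
Log2 fold change of MCHP over DMSO in M1 (circles) and M2 cells (squares) and the difference of both (diamonds) for the 5 tested receptor genes, ± SE, where filled symbols mark an adjusted p under 0.05. CLEC7A, CD209 and CLEC10A are filled in M2 at -0.49, -0.59 and -0.99, no gene is filled in M1, and the difference is filled for CD209 at 0.77.

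Markers of the polarization state and of other cells were read beside these responses. Of 13 tested interleukin 4 markers, 2 rose with MCHP in M2 cells and 2 fell (2.92% and 2.18% of all tested genes). CCL22 averaged 1214 ± 54 CPM with MCHP and 742 ± 98 CPM with DMSO (log2 fold change 0.71 ± 0.08, adjusted p = 5.6e-05). FABP4, a fatty acid carrier and a known target of PPAR-gamma, averaged 91.8 ± 13.8 CPM with MCHP and 8.30 ± 4.46 CPM with DMSO (3.48 ± 0.21, adjusted p = 2.2e-08). The summed level of the 20 interleukin 4 markers was 14680 to 15170 CPM with M2 MCHP and 12410 to 14560 CPM with M2 DMSO, with MAOA and CCL18 at 0 in both groups. Within these sums TGM2 averaged 10050 CPM with MCHP and 9391 CPM with DMSO, and IL1RN 3445 and 3472 CPM. CISH, an interleukin 4 induced inhibitor of cytokine signalling, fell, at 64.4 CPM with MCHP and 81.8 CPM with DMSO (-0.34 ± 0.09, adjusted p = 0.029), and passed in 14 of 19 alternatives. Its call was lost without M2 MCHP replicate 1 or 3, without M2 DMSO replicate 2 or 3, and with the compared libraries only. The chemokine CCL13, named after its values were seen, fell as well, at 1.93 CPM with MCHP and 4.77 CPM with DMSO (-1.32 ± 0.25, adjusted p = 0.0037). The called markers of this list thus went both ways.

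Of 15 tested M1 markers, 2 rose with MCHP in M2 cells and 2 fell (2.92% and 2.18% of all tested genes). The costimulatory gene CD86 (0.35, adjusted p = 0.014) and the prostaglandin synthase gene PTGS2 (0.51, adjusted p = 0.0047) rose, and the chemokine CCL5 (-0.35, adjusted p = 0.00049) and the cytokine TNF (-0.33, adjusted p = 0.041) fell. CCL5 passed in all 19 alternatives, PTGS2 in 18, CD86 in 15 and TNF in 7. The call of CD86 was lost without M2 MCHP replicate 1 or 2, without M2 DMSO replicate 2, and with the compared libraries only.

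Of 11 tested dendritic cell markers, 1 fell with MCHP in M2 cells and none rose (2.18% and 2.92% of all tested genes). It was CD83, which averaged 115 ± 3.5 CPM with MCHP and 174 ± 6.2 CPM with DMSO (log2 fold change -0.60 ± 0.06, adjusted p = 1.2e-05). The summed level of the 19 dendritic markers was 2480 to 2636 CPM with M2 MCHP and 2343 to 2832 CPM with M2 DMSO. ITGAX alone averaged 1952 CPM with M2 MCHP and 1976 CPM with M2 DMSO. Of 9 tested macrophage markers, 2 fell in M2 cells, the receptor genes CSF1R (-0.32, adjusted p = 0.0018) and FCGR1A (-0.63, adjusted p = 0.00013). Of 7 T-cell markers, 2 were tested and 1 fell, TRAC, at 20.3 ± 3.2 CPM with MCHP and 32.6 ± 5.2 CPM with DMSO (-0.68, adjusted p = 0.0025). CD2 and CD8A were at 0 in both M2 groups. None of the tested B-cell, NK-cell, neutrophil, fibroblast, epithelial or endothelial markers passed in M2 cells, and the part of any marker in the receptor results was not tested.

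The genes through which these receptors signal were described as a list of 28, of which 27 were tested. With MCHP in M2 cells, 2 rose and 6 fell, where 5.11% of all tested genes passed, with a median of -0.06 on the log2 scale for the list, against -0.00 over all tested genes. SYK, the kinase shared by CLEC7A, CLEC4E and CLEC5A, rose: it averaged 39.9 CPM with MCHP and 27.3 CPM with DMSO (0.55 ± 0.09, adjusted p = 0.00087). The adaptor TYROBP, which couples CLEC5A to SYK, fell, with 19.6 CPM with MCHP and 27.6 CPM with DMSO (-0.49 ± 0.10, adjusted p = 0.0089). SYK passed in all 19 alternatives and TYROBP in 18 of them.

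CARD9, the adaptor downstream of SYK, was at -0.33 (adjusted p = 0.035), the exchange factor VAV3 at -0.28 (adjusted p = 0.019) and the inflammasome sensor NLRP3 at -0.23 (adjusted p = 0.042). CARD9 passed in 9 of 19 alternatives, VAV3 in 16 and NLRP3 in 5. FCER1G, the adaptor of CLEC4E, at -0.47 (adjusted p = 0.048), and the lipid kinase subunit PIK3CG at 0.25 (adjusted p = 0.047) were named after their values were seen, and each passed in 6 of 19 alternatives. The value of FCER1G ran from -0.60 to -0.20 over single omissions. The count of the list ranged from 2 genes, with the compared libraries only, to 11, the highest over single omissions. It was 5 without any 1 of the M1 MCHP libraries, 4 without any 1 of the M1 DMSO libraries, and 5 with M2 DMSO replicate 2 left out. Of the M2 MCHP libraries, leaving out replicate 1 or 3 gave 3 and leaving out replicate 2 gave 4. In M1 cells none of the 27 passed for MCHP against DMSO, with a median of 0.01, where SYK was at 0.24 (adjusted p = 0.73), and no gene of the list passed in the difference of both responses. Without M2 DMSO replicate 1, 2 of the 27 passed in M1 cells and 1 in the difference, and 2 passed in M1 cells with the compared libraries only.

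**Figure D5:**
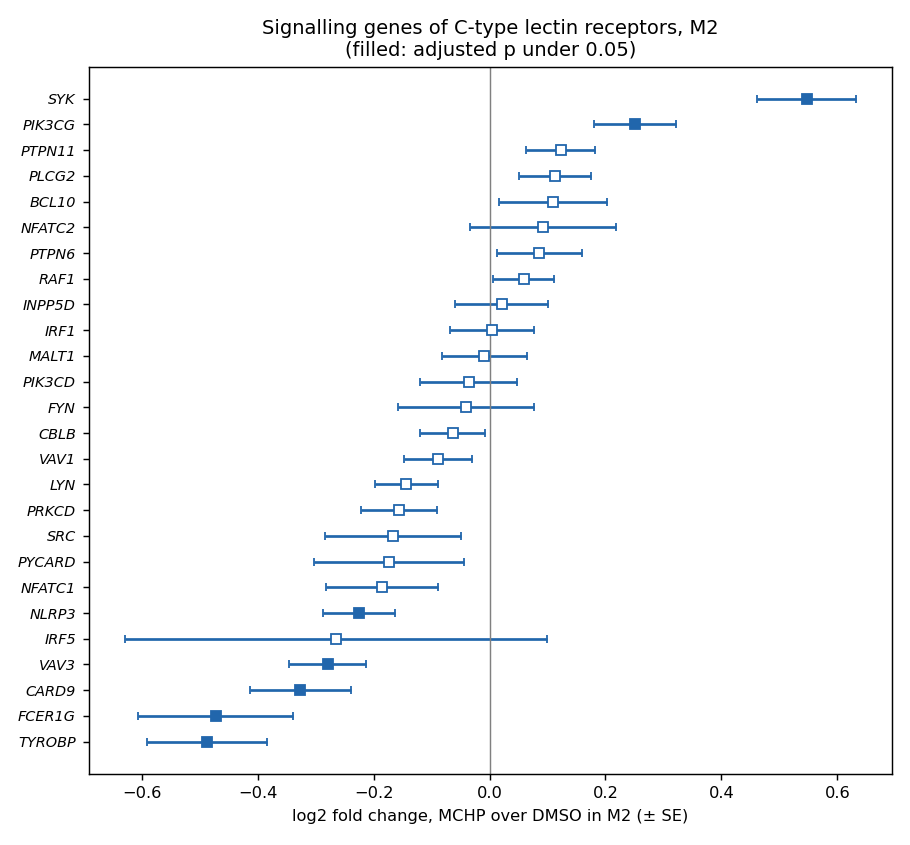
Log2 fold change of MCHP over DMSO in M2 cells for 26 of the 27 tested signalling genes of C-type lectin receptors, ± SE, ordered by value, where filled squares mark an adjusted p under 0.05. SYK is highest at 0.55 and TYROBP lowest at -0.49, with 2 filled squares above 0 and 5 below.

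Between M1 and M2 cells, 23 of the 27 signalling genes passed, 16 higher and 7 lower in M1, with MCHP and likewise with DMSO, where 44.6% of all tested genes passed with MCHP and 42.5% with DMSO. The medians of the list were 0.37 with MCHP and 0.30 with DMSO. The transcription factor IRF1, which is also in the list of M1 markers, was higher in M1 by 3.90 with MCHP and 3.88 with DMSO on the log2 scale, and the kinase SRC by 2.49 with MCHP and 2.26 with DMSO. TYROBP was also higher in M1, by 0.99 with MCHP and 0.65 with DMSO. SYK was lower in M1, at -0.80 with MCHP and -0.49 with DMSO, and so was CARD9, at -0.47 with MCHP and -0.74 with DMSO. BCL10 and MALT1, the partners of CARD9, were higher in M1, BCL10 by 0.34 with MCHP and 0.40 with DMSO, and MALT1 by 0.37 with MCHP and 0.30 with DMSO.

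The wider family of genes with a C-type lectin domain was read as a list of 46 others, of which 17 were tested. With MCHP in M2 cells 1 rose and 1 fell, where 5.11% of all tested genes passed. The median of the list was -0.16, against -0.00 over all tested genes. THBD (thrombomodulin), an anticoagulant receptor of thrombin, averaged 1916 ± 11 CPM with MCHP and 1520 ± 199 CPM with DMSO (0.33 ± 0.07, adjusted p = 0.0091). OLR1, a receptor of oxidized low-density lipoprotein, averaged 339 ± 13 CPM with MCHP and 413 ± 29 CPM with DMSO (-0.28 ± 0.06, adjusted p = 0.0077). Each passed in 18 of 19 alternatives. With the compared libraries only, neither passed (adjusted p = 0.14 for THBD and 0.10 for OLR1). None of the 17 passed in M1 cells, and 2 did without M2 DMSO replicate 1 or with the compared libraries only. Between M1 and M2 cells, 2 of the 17 were higher and 6 lower in M1 with MCHP, and 2 were higher and 5 lower with DMSO, at medians of -0.17 with MCHP and -0.37 with DMSO. These counts are near the share of all tested genes, 44.6% with MCHP and 42.5% with DMSO, and are not a result about the family.

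Only some of the tested neighbouring genes within 100 kb are named here, next to the members. Between M1 and M2 cells, 44.6% of all tested genes passed with MCHP and 42.5% with DMSO. Whether neighbours moved with a member more often than other genes did was not tested. ASGR2, a galactose lectin gene 21 kb from CLEC10A, was higher in M1 than in M2 cells, as CLEC10A was: it averaged 8.0 CPM in M1 and 0.803 CPM in M2 cells with MCHP, and 8.03 CPM in M1 and 0.854 CPM in M2 cells with DMSO. In M2 cells ASGR2 was at -0.09 for MCHP against DMSO (adjusted p = 0.92). FCER2 (CD23), 37.8 kb from CD209, was lower in M1 than in M2 cells, by -1.24 with MCHP (adjusted p = 4.5e-07) and -1.58 with DMSO (adjusted p = 2.1e-08) on the log2 scale. FCER2 was at -0.08 for MCHP against DMSO in M2 cells (adjusted p = 0.81). OLR1, 28 kb from CLEC7A, was lower in M1 than in M2 cells, by -0.26 with MCHP and -0.32 with DMSO. C3AR1, the C3a receptor gene 57.2 kb from CLEC4A, was higher in M1 by 2.57 with MCHP and 2.19 with DMSO, in the other direction from the CLEC4A counts, and it fell with MCHP in M2 cells (-0.45, adjusted p = 0.002). TMEM52B, 40.3 kb from CLEC7A, was lower in M1, by -1.55 with MCHP and -1.59 with DMSO. ASGR1, 93.1 kb from CLEC10A, did not pass, at 0.43 with MCHP (adjusted p = 0.27) and 0.40 with DMSO (adjusted p = 0.36). STXBP2, 92.1 kb from CD209, did not pass either, at 0.07 with MCHP (adjusted p = 0.45) and 0.00 with DMSO (adjusted p = 0.98).

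As a description with no test, the genes most like each member over the 12 libraries were those with the smallest root mean square difference in centred log2 CPM, among 9612 protein-coding genes. For CLEC10A they were IL32 (0.259), ATP1B2 (0.281) and TAGAP (0.332), against a root mean square of 2.12 for CLEC10A itself. For CD209 they were SYT17 (0.141), CTNS (0.159) and RUNX2 (0.162), against 0.645 for CD209. For CLEC7A they were NUDT4 (0.0881), TNFRSF9 (0.0981) and SGK1 (0.116), against 0.494 for CLEC7A. CLEC5A was nearest to SP110 (0.188), IFIT5 (0.198) and STAT2 (0.203), against 1.29 for CLEC5A. CLEC2B was nearest to FCGR1B (0.548), MT2A (0.564) and CLEC5A (0.573), against 1.38 for CLEC2B, so its likeness was the loosest of the 5.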

How the data were processed

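RNA was measured in 12 libraries, 3 biological replicates per group by the labels, and the numbers of the replicates were taken from the sample titles. The authors deposited raw counts per gene, with no normalization, beside gene model lengths. Named in the submitters' processing notes are the build hg38, featureCounts 1.5.0-p3, HISAT2 2.0.5, fastp, DESeq2 1.20.0 and StringTie 1.3.3b, with no roles. Strand, batch and date are not given in the sources used here. Coordinates are those of the table, and promoters are RefSeq's (GRCh38.p14).

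Counts were fitted in R 4.3.3 with edgeR 4.0.16: filterByExpr over the 4 groups (15252 genes left), TMM scaling, 1 mean per group over all 12 libraries (8 residual degrees of freedom) and the two-sided quasi-likelihood F-test, with Benjamini-Hochberg adjustment over all genes tested and a threshold of 0.05. The script was tested on simulated data. Genes at or near 0 were compared as summed counts with exact 95% binomial intervals and a floor of 3 counts, which cover counting error only. Depth was 14352202 to 16871233 counts per library.

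The members and lists were chosen with earlier results of these data known. All 9 members were named. Of the lists of related lectins, signalling genes and interleukin 4 markers, up to 6 called genes with the smallest adjusted p and a mean of at least 5 CPM were named per comparison. Genes of the other marker lists, FCER1G and PIK3CG, and signalling genes set side by side between comparisons were named after their values were seen. CLEC9A, CD207, CLEC4C, KLRD1, KLRF1, FCER2, IRF1, CD163, MSR1 and CCR7 are in more than 1 list. Of the signalling genes, 1 is counted but not reported by name here. Likeness used log2 CPM with a prior count of 2.

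The alternatives were DESeq2's size factors, scaling by library size only, no count filter, the replicate number as a block, DESeq2 1.42.0, limma-voom (limma 3.58.1), the compared libraries only, and leaving out each library.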

Additional observations from a re-analysis of the deposited data

Results flagged for a closer look

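The response of CD209 to MCHP differed between polarizations by a direct test of that difference, edgeR's quasi-likelihood interaction term with Benjamini-Hochberg adjustment. The log2 fold change of MCHP over DMSO was 0.18 ± 0.08 in M1 cells and -0.59 ± 0.07 in M2 cells, and the difference was 0.77 ± 0.11 (adjusted p = 0.003). CD209 was higher with MCHP in 3 of 3 M1 libraries, against all M1 DMSO libraries, and lower in 3 of 3 M2 libraries, against all M2 DMSO libraries. In M1 the margin was small, 57.4 CPM in the lowest MCHP library against 56.8 CPM in the highest DMSO library. How many of all tested genes separate in this way was not counted. The M1 response alone did not pass (adjusted p = 0.88). The difference passed in all 18 alternatives, with adjusted p of 8.5e-09 to 0.026, and was 0.82 without M2 DMSO replicate 1, the library that stood apart.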

How the results depend on the processing

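For the tested members, 453 of 468 alternative values kept their direction and their side of the threshold. CD209 and CLEC7A in M2 cells passed in all 19 alternatives, as did CLEC10A, CD209, CLEC7A and CLEC5A between M1 and M2 cells. The exceptions were these. CLEC10A in M2 cells was lost with limma-voom (-0.998, adjusted p = 0.073), with the compared libraries only (-0.998, adjusted p = 0.20) and without 3 single libraries, and its value over single omissions was -1.17 to -0.79. The members called in M2 cells were then 2 rather than 3. The members called in the difference were 2 with no filter (CLEC7A 0.45, adjusted p = 0.0038), with DESeq2 and without M2 DMSO replicate 1, and 1 to 2 over single omissions. Uncalled values changed sign for CLEC2B in M1 with limma-voom (0.04) and over single omissions (-0.46 to 0.27), for CLEC7A in M1 (-0.072 to 0.018) and for CLEC5A in the difference (-0.091 to 0.31). All genes called for MCHP in M1 numbered 13, against 76 with no filter, 5 with the replicate block, 50 with DESeq2, 295 with the compared libraries only and 1 to 159 over single omissions. In M2 they numbered 779, against 183 with the compared libraries only and 383 to 1747 over single omissions. In the difference they numbered 25, against 170 with no filter, 96 with DESeq2 and 5 to 385 over single omissions. The highest of these omission counts (159, 1747 and 385) were without M2 DMSO replicate 1, and the lowest in M2 (383) without M2 MCHP replicate 1. The cause was not tested.

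Libraries with the same number did not deviate together (correlations -0.05 to 0.04). Whether they shared a culture day or batch is not given and was not tested. The replicate block changed no call of a member, with CLEC10A in M2 at -0.99 (adjusted p = 0.035), but lost the calls of FCER1G, PIK3CG and NLRP3 in M2 cells. In the compared libraries only, CLEC2B was not tested between M1 and M2 with DMSO, nor for MCHP against DMSO in M2 cells. DESeq2 gave the adjusted p of CLEC2B as NA in 3 comparisons. Order by CPM without length puts CLEC5A before CLEC10A in M1 cells. CLEC10A in M2 cells, CLEC2B and the 4 untested genes are limited by depth.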
